A study of Rattus norvegicus with 12 samples.

Results

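Hox genes encode homeodomain transcription factors and lie in 4 clusters, HoxA to HoxD. The number in a gene's name is its paralog position, counted from the 3′ end of the cluster. Members of the family were taken as the gene symbols made of Hox, a cluster letter and a position. This gave 33 of the 30045 symbols counted by RNA sequencing, namely 8 of HoxA, 10 of HoxB, 8 of HoxC and 7 of HoxD. The libraries were made from hind paw metatarsals of Sprague Dawley rats at embryonic day 19, cultured for 72 h in 4 conditions. These were dexamethasone (a synthetic glucocorticoid, 1 µM) plus LiCl (10 mM), dexamethasone alone (1 µM), LiCl alone (10 mM), and control medium. LiCl inhibits glycogen synthase kinase 3 and thereby raises β-catenin signalling. All 4 media held the same base of bovine serum albumin, β-glycerophosphate, ascorbic acid and gentamycin, and the ethanol in which dexamethasone was dissolved was added to the media without it. Each condition had 3 pools of about 20 bones, so n = 3 pools and the tests measure the spread between pools.

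In vertebrate limbs, genes at the 5′ ends of HoxA and HoxD are switched on in a proximal to distal order. In outline, positions 9 and 10 mainly serve the upper limb, position 11 the middle, and positions 12 and 13 the autopod, the hand or foot to which metatarsals belong. This outline does not confine the expression of a gene to one segment, and Hoxd9 and Hoxd10 were counted in every library here. HOXA13 and HOXD13 are required for digit formation, and HOXD13 variants cause limb malformations in people. Polycomb proteins keep Hox genes silent, whereas MLL proteins keep them active, and retinoic acid switches on genes near the 3′ ends.

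The letters before the transcription starts of the HoxD genes that the results turn on are given from RefSeq (build GRCr8), because these genes of one cluster held most Hox counts, and Hoxd9 and Hoxd12 were called while Hoxd10 and Hoxd13 were not. Each run is the 250 bases before the start, read 5′ to 3′, and capitals mark the TATA box letters TATAAA.
Hoxd9, chr3:80007756-80008005, strand +: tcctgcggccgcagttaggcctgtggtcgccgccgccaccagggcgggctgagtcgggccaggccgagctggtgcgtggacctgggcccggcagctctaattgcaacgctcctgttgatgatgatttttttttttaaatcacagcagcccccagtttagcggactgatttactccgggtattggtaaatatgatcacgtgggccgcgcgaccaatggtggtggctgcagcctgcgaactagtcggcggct
Hoxd10, chr3:80001697-80001946, strand +: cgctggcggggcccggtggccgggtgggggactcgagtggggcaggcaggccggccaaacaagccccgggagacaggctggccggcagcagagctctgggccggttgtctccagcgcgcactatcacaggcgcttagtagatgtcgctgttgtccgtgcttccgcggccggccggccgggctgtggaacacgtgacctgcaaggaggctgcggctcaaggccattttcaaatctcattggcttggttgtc
Hoxd12, chr3:79984856-79985105, strand +: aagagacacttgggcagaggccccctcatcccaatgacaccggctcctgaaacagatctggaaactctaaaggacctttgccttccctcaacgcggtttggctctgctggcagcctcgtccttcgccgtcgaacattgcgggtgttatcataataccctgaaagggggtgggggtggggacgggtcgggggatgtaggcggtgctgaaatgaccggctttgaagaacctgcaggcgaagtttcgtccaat
Hoxd13, chr3:79977827-79978076, strand +: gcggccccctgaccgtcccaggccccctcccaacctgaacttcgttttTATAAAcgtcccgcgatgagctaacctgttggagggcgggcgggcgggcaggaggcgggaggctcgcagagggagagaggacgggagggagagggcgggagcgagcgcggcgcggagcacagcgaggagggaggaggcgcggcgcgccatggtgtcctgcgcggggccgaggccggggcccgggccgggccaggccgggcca
The 4 windows held 20, 21, 14 and 30 CpG in the order printed, against a median of 5 over 33469 promoters of the table. Their GC content was 60%, 67.2%, 56.8% and 74.8%, against a median of 51.2%. Both strands were searched for the glucocorticoid receptor half-site AGAACA and for the TCF/LEF letters CTTTGAT read by β-catenin partners, which do not overlap each other. Neither was found in any of the 4 windows. They were found in 17.5% and 3.15% of all promoters. The TATA box letters TATAAA were searched on the strand of the gene alone, at any place in the window. They were present in the Hoxd13 window, far from the start, and in 8.06% of all promoters. Whether they act as a TATA box was not tested. Letters outside these windows were not searched.

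The label of hindlimb was checked against limb type factors. Pitx1 and Tbx4, which mark the hindlimb, were counted in all pools. Pitx1, a homeobox gene, averaged 37.5 ± 6.75 CPM (counts scaled to library size with TMM) with dexamethasone + LiCl, 38.1 ± 4.99 with dexamethasone, 38.6 ± 1.76 with LiCl and 43.0 ± 4.74 in control (SD, n = 3 each). Tbx4, a T-box gene, averaged 149 ± 3.28 CPM with dexamethasone + LiCl, 198 ± 7.82 with dexamethasone, 160 ± 4.93 with LiCl and 189 ± 10.7 in control. The forelimb gene Tbx5 had at most 37 counts in a library, and Isl1, an early hindlimb gene, at most 4. Total counts per library were 9055581 to 21953446. Markers of other cell types were present and differed between conditions. Summed over 7 endothelial genes, all 7 detected, the levels were 91.8 to 102 CPM with dexamethasone + LiCl, 81.5 to 86.5 with dexamethasone, 189 to 208 with LiCl and 203 to 226 in control. Summed over 7 skeletal muscle genes, all 7 detected, they were 118 to 149 CPM, 17.7 to 36.5, 30.6 to 45.9 and 4.08 to 8.82 in the same order of conditions. Summed over 8 genes of perichondrium, periosteum and fibroblasts they were 16910 to 19340 CPM, 17320 to 22640, 18610 to 20100 and 21340 to 27140, and over 7 chondrocyte genes 68420 to 94050, 64200 to 93130, 76510 to 88460 and 81620 to 94330. In bulk samples fewer cells of a type and less RNA per cell cannot be told apart.

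Of the 33 Hox genes, 5 had 60 or more counts in at least 2 libraries. These were Hoxd9, Hoxd10, Hoxd12 and Hoxd13 of HoxD and Hoxa3 of HoxA, and each had 60 or more in all 12 libraries. No gene of HoxB or HoxC passed. By paralog position, 1 gene passed at each of positions 3, 9, 10, 12 and 13, and none at positions 1, 2, 4 to 8 and 11. Of the other 28 genes, 23 were detected and 5 had no count in any library (Hoxb1, Hoxb13, Hoxc8, Hoxc12 and Hoxd1). In 26 of the 28, no library had more than 14 counts. The genes just inside the limit were Hoxd9 with 77 to 267 counts and Hoxa3 with 95 to 236, and those just outside were Hoxa2 with 10 to 35 and Hoxd4 with 4 to 24.

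**Figure D1:**
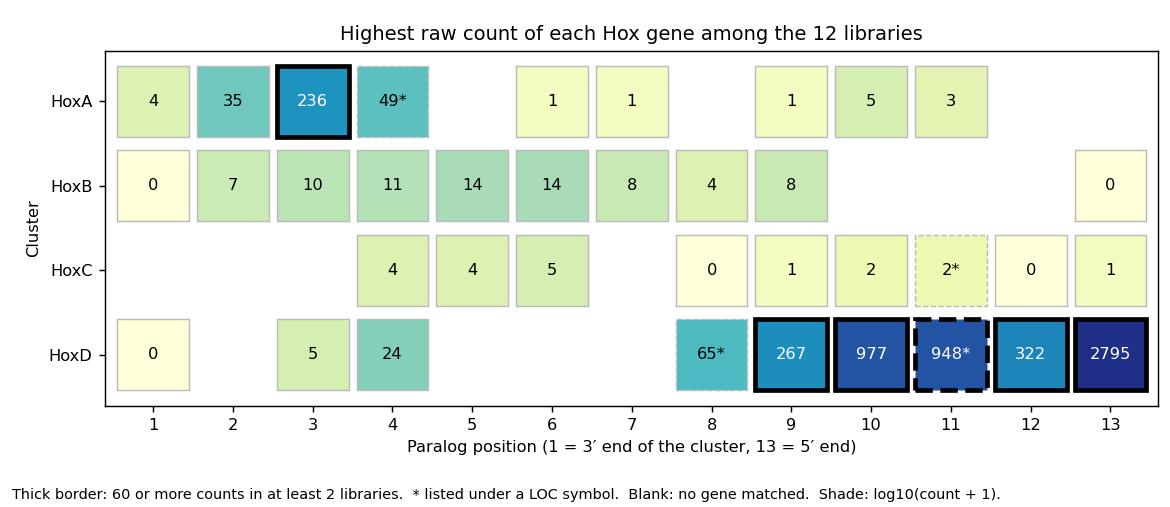
Highest raw count of each Hox gene among the 12 libraries, with the 4 clusters as rows and the paralog position as columns. Thick borders mark genes with 60 or more counts in at least 2 libraries, asterisks genes listed under a LOC symbol; the high counts lie at HoxD positions 9 to 13, with 2795 for Hoxd13, and at Hoxa3.

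The 5 genes held 97.74% of the counts of the 33 symbols, Hoxd13 alone 59.65%, and the 33 symbols together 0.02046% of all counts. HoxD made up 92.3 ± 0.714% of the summed Hox CPM with dexamethasone + LiCl, 91.6 ± 1.10% with dexamethasone, 92.9 ± 0.454% with LiCl and 92.6 ± 0.471% in control (SD, n = 3 pools). HoxA took 6.88 ± 0.411%, 7.88 ± 1.05%, 6.17 ± 0.399% and 6.01 ± 0.601% in the same order. Hoxa3 held 2043 of the 2345 HoxA counts. Counts are not divided by transcript length here, so these shares weigh long transcripts more. Hox genes without a row under a Hox symbol are left out of all shares. Among them Hoxd11 had 6941 counts under another symbol, against 35777 for the 33 symbols. Hoxa5 and Hoxa13 are left out as well, so the split between HoxA and HoxD does not cover all of HoxA.

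RefSeq lists 39 Hox genes for the rat. A further 4 were counted under LOC symbols that carry the gene ID of a Hox gene. Hoxd11 (LOC102553842) had 321 to 948 counts and passed the limit, which made the run of HoxD genes from position 9 to 13 complete. Hoxd8 (LOC100912936) had 15 to 65 counts and reached 60 in 1 library only, Hoxa4 (LOC100912525) had at most 49 and Hoxc11 (LOC100911859) at most 2. Hoxa5 and Hoxa13 were not analysed here. The rows of the posterior HoxA genes Hoxa9, Hoxa10 and Hoxa11 had at most 1, 5 and 3 counts. RefSeq gives Hoxa9, Hoxa10, Hoxa11 and Hoxc8 also as older symbols of other Hox genes, so which gene these rows counted is uncertain. The RefSeq span of Hoxa3 contains or overlaps 6 other genes, among them Hoxa4, Hoxa5 and Hoxa6, and how its reads were divided among them is uncertain too. In all, 11 Hox genes counted here overlap another RefSeq gene, among them Hoxb5 and Hoxb6, which overlap Hoxb5os, and Hoxc4, Hoxc5 and Hoxc6, of which Hoxc6 overlaps both others, and the same limit holds for their counts.

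Hoxd9, which acts in the proximal limb together with its paralogs, was lower with dexamethasone. It had 8.28, 7.97 and 8.63 CPM in the dexamethasone pools, against 10.98, 14.9 and 13.5 CPM in the control pools. The dexamethasone pools lay close together and all below the control pools. The fold was 0.636 (log2 fold change −0.65, SE 0.14, 95% CI −0.96 to −0.35, adjusted p = 0.00711, edgeR). The call held in each of the 19 alternative fits, with adjusted p between 0.00186 and 0.0336.

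Hoxd12, a gene of the 5′ end of HoxD that is expressed in the autopod, was also lower with dexamethasone. It had 10.8, 10.2 and 10.9 CPM in the dexamethasone pools, against 14.5, 14.02 and 13.7 CPM in the control pools. The groups did not overlap. The log2 fold change was −0.41 (SE 0.12, 95% CI −0.67 to −0.14, adjusted p = 0.0474, edgeR). This call was lost when any library other than dexamethasone + LiCl pool 1 or 3 was left out, with adjusted p of 0.0318 to 0.145 over the 12 such fits, although the log2 fold change stayed between −0.43 and −0.38. DESeq2 did not call it (adjusted p = 0.0506), nor did edgeR with no count limit (adjusted p = 0.0704).

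Thus 2 of the 5 Hox genes tested fell with dexamethasone and none rose. Over all 12602 genes tested, 5.49% fell and 5.45% rose. DESeq2 called Hoxd9 alone, where 6.2% of all genes fell and 6.37% rose. None of the other Hox genes that passed the count limit had an unadjusted p under 0.05 in edgeR. Such a p came with a fall in 11.6% of all genes and with a rise in 12.3%. Pools of the groups did not overlap for Hoxd9 and Hoxd12, which was so in 12.7% of all genes in that direction. The median log2 fold change of the 5 genes was −0.12, that of all genes 0.0021. None of the 5 genes passed a 2-fold limit as well, which 1.26% of all genes passed with a fall and 1.58% with a rise. Marker sums moved between the same groups, in both directions. The endothelial sum was 81.5 to 86.5 CPM with dexamethasone and 203 to 226 in control. Over 4 osteoclast genes, 3 of them detected, the sum was 85.5 to 99.97 CPM, against 159 to 178 in control. Over 7 genes of macrophages and other blood cells it was 141 to 166 CPM, against 64.2 to 96.7. The skeletal muscle sum was 17.7 to 36.5 CPM, against 4.08 to 8.82. The part of these cell types in the Hox values was not tested.

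**Figure D2:**
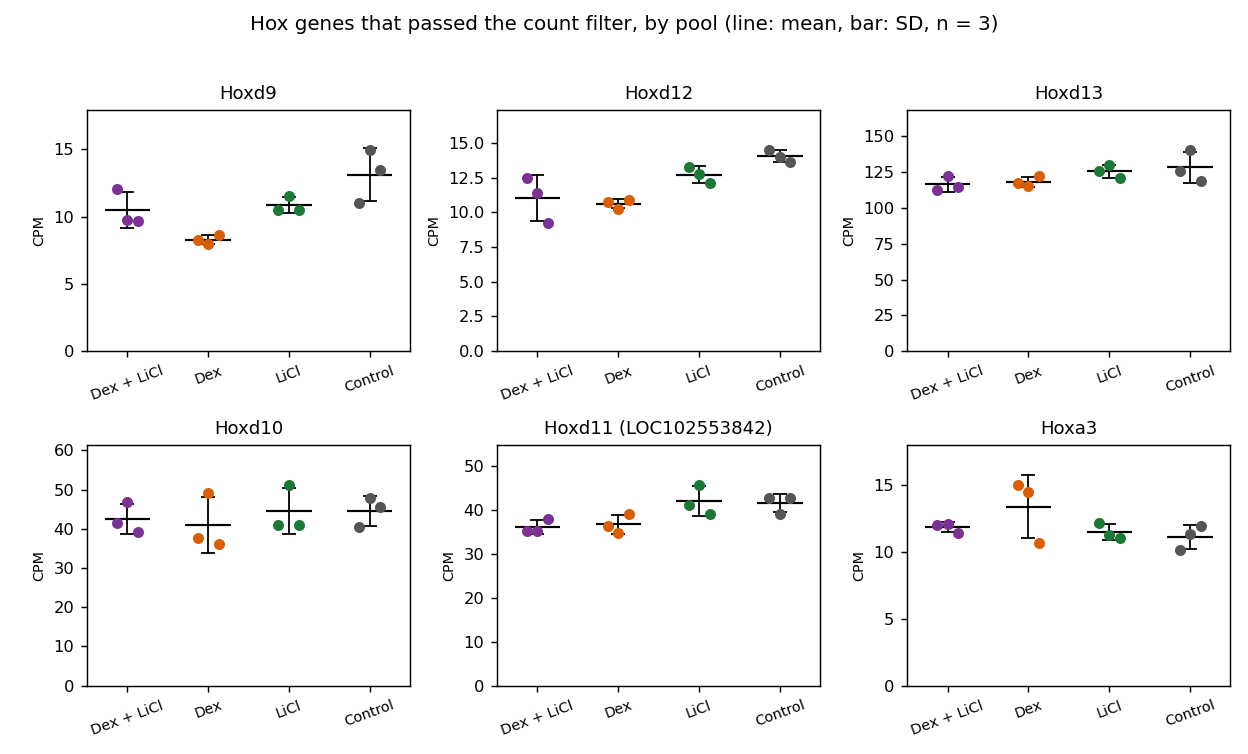
CPM of 6 Hox genes in each of the 12 pools, with the axis of each panel starting at 0. Points are pools, lines means and bars SD (n = 3); the dexamethasone pools lie below the control pools for Hoxd9 (7.97 to 8.63 against 10.98 to 14.9) and Hoxd12 (10.2 to 10.9 against 13.7 to 14.5), and the groups overlap for Hoxd13 and Hoxd10.

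Hoxd13, the most highly counted Hox gene and the last of its cluster, differed little between conditions. It had 113, 122 and 115 CPM with dexamethasone + LiCl, 117, 115 and 122 with dexamethasone, 126, 130 and 121 with LiCl, and 126, 140 and 119 in control. Its highest pool was 1.25 times its lowest. The log2 fold change of dexamethasone against control was −0.12 (95% CI −0.28 to 0.05, adjusted p = 0.388, edgeR). That 95% interval reaches down to a fall of 0.28 on the log2 scale. Dexamethasone + LiCl against control was at −0.14 (95% CI −0.30 to 0.026, adjusted p = 0.22, edgeR).

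Hoxd10 had 37.7, 49.1 and 36.1 CPM in the dexamethasone pools, against 40.4, 47.8 and 45.5 CPM in control. The groups overlapped, and the log2 fold change was −0.11 (95% CI −0.38 to 0.15, adjusted p = 0.629). Hoxd11, counted as LOC102553842, had 36.3, 34.7 and 39.0 CPM with dexamethasone, against 42.7, 39.1 and 42.8 CPM in control, with a log2 fold change of −0.18 (95% CI −0.37 to 0.0026, adjusted p = 0.215). Its pools did not overlap, as in 12.7% of all genes in that direction, and the difference did not pass the test. Hoxa3, of the anterior part of HoxA, had 15.0, 14.4 and 10.6 CPM with dexamethasone, against 10.1, 11.3 and 11.9 CPM in control. Dexamethasone pool 3 lay within the control range, and the log2 fold change was 0.27 (95% CI −0.013 to 0.56, adjusted p = 0.231). That Hoxd9 and Hoxd12 passed and the other 3 genes did not is no test of a difference between the genes, and none was made.

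With LiCl alone none of the 5 Hox genes was called in either direction, by edgeR or by DESeq2, and none had an unadjusted p under 0.05. Over all genes, 5.9% fell and 4.71% rose by edgeR, and 6.96% and 5.52% by DESeq2. An unadjusted p under 0.05 came with a fall in 13.5% and with a rise in 12.6%. Hoxd12 had 13.3, 12.8 and 12.1 CPM in the LiCl pools, against 14.5, 14.02 and 13.7 CPM in control. Its pools did not overlap, as in 16.4% of all genes in that direction, and its log2 fold change was −0.15 (95% CI −0.39 to 0.10, adjusted p = 0.463). Hoxd9 had 10.5, 11.5 and 10.5 CPM with LiCl, against 10.98, 14.9 and 13.5 CPM in control, so that 1 LiCl pool lay within the control range. Its log2 fold change was −0.26 (95% CI −0.55 to 0.023, adjusted p = 0.231). Hoxd13 was at −0.029 (95% CI −0.19 to 0.13) and Hoxd10 at 0.0010 (95% CI −0.26 to 0.26). The median of the 5 genes was −0.029, that of all genes 0.00092.

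When LiCl was added to dexamethasone, none of the 5 Hox genes was called by edgeR or DESeq2 as compared to dexamethasone alone. Over all genes, 3.82% rose and 4.78% fell by edgeR, and 4.71% and 5.97% by DESeq2. Of the 5, Hoxd9 alone had an unadjusted p under 0.05, which 10.5% of all genes had with a rise and 12.2% with a fall. It had 12.02, 9.76 and 9.69 CPM with dexamethasone + LiCl, against 8.28, 7.97 and 8.63 CPM with dexamethasone. All 3 combined pools lay above the dexamethasone pools, as in 13.3% of all genes in that direction. The log2 fold change was 0.33 (SE 0.15, 95% CI 0.014 to 0.65, unadjusted p = 0.042, adjusted p = 0.199). This comparison shares its dexamethasone pools with that of dexamethasone against control. Hoxd12 had 12.5, 11.4 and 9.23 CPM with dexamethasone + LiCl, against 10.8, 10.2 and 10.9 CPM with dexamethasone. These groups overlapped, and the log2 fold change was 0.040 (95% CI −0.24 to 0.32, adjusted p = 0.902).

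As compared to control, dexamethasone + LiCl lowered 1 of the 5 genes and raised none, where 11.8% of all genes fell and 10.8% rose. DESeq2 called 1 as well, where 12.5% fell and 11.4% rose. None passed a 2-fold limit, which 2.1% of all genes passed with a fall and 2.27% with a rise, and none was lower without the count limit, where 7.49% of all genes were. The gene called by both was Hoxd12, at 12.5, 11.4 and 9.23 CPM with dexamethasone + LiCl, against 14.5, 14.02 and 13.7 CPM in control. All combined pools lay below the control pools, as in 18.6% of all genes in that direction. The log2 fold change was −0.37 (SE 0.12, 95% CI −0.63 to −0.11, adjusted p = 0.0421). Leaving out single libraries took the adjusted p to between 0.0281 and 0.210, and the call was lost in 9 of 12 such fits. It held in those without dexamethasone + LiCl pool 1 or dexamethasone pool 2 or 3. Hoxd9, at a log2 fold change of −0.32 (95% CI −0.62 to −0.026, adjusted p = 0.112, edgeR), had the other unadjusted p under 0.05 among the 5 genes. Such a p came with a fall in 17.5% of all genes and with a rise in 17.1%. Hoxd9 was called in 1 fit, that without control pool 1 (adjusted p = 0.0419, edgeR). As compared to LiCl alone, dexamethasone + LiCl changed none of the 5 genes by edgeR or DESeq2, and none had an unadjusted p under 0.05. Over all genes, 3.79% rose and 3.09% fell by edgeR, and 4.27% and 3.77% by DESeq2. An unadjusted p under 0.05 came with a rise in 8.1% and with a fall in 8.4%. Hoxd11, counted as LOC102553842, had 35.1, 35.2 and 38.0 CPM with dexamethasone + LiCl, against 41.1, 45.7 and 39.1 CPM with LiCl (log2 fold change −0.21, 95% CI −0.40 to −0.031, adjusted p = 0.197).

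The interaction asks whether LiCl acted differently in the presence of dexamethasone than in its absence. No Hox gene was called by edgeR or DESeq2. Over all genes, edgeR called 0% in the higher direction and 0.00794% in the lower, and DESeq2 0.0873% and 0.111%. Hoxd9 had the lowest unadjusted p of the 5 genes, 0.00965, with an interaction of 0.59 on the log2 scale (SE 0.20, 95% CI 0.17 to 1.02) and an adjusted p of 0.791. The other 4 had no unadjusted p under 0.05, which 2.78% of all genes had in the higher direction and 2.82% in the lower.

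**Figure D3:**
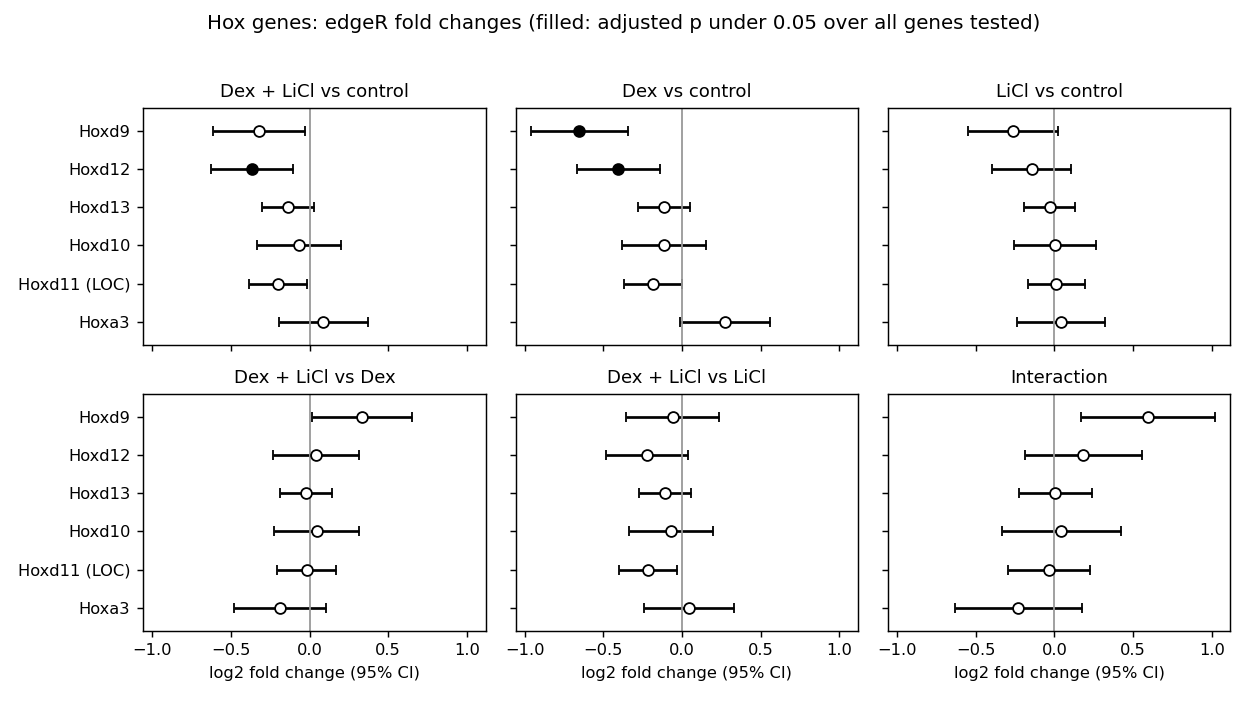
edgeR log2 fold changes of 6 Hox genes (points) with 95% confidence intervals (bars) in the 5 comparisons and the interaction of the drugs. Filled points passed an adjusted p of 0.05 over all genes tested, and these were Hoxd9 (−0.65) and Hoxd12 (−0.41) for dexamethasone against control and Hoxd12 (−0.37) for dexamethasone + LiCl against control.

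The 10 genes of HoxB were sparse, with at most 14 counts in a library, and were described by their sums. HoxB summed to 1.86, 0.821 and 1.05 CPM with dexamethasone + LiCl, 0.931, 1.09 and 0.784 with dexamethasone, 1.36, 1.68 and 1.70 with LiCl, and 2.79, 3.44 and 2.47 in control. Every treated pool lay below every control pool, a description for which no test was made. Among single genes that passed the count limit, 12.7% lay so with dexamethasone, 16.4% with LiCl and 18.6% with dexamethasone + LiCl. Not every HoxB gene was lower. The ratio of CPM to control was 1.199 for Hoxb3 with dexamethasone (9 against 13 counts) and 1.546 for Hoxb2 with LiCl (11 against 7 counts). The other ratios of detected HoxB genes were below control. The HoxB sums rest on 44, 29, 86 and 148 counts over the 3 pools of each condition. As a share of the summed Hox CPM, HoxB took 0.636 ± 0.282% with dexamethasone + LiCl, 0.477 ± 0.0669% with dexamethasone, 0.754 ± 0.0973% with LiCl and 1.33 ± 0.144% in control.

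Hoxb6, the HoxB gene with the most counts, had 2, 1 and 7 counts with dexamethasone + LiCl, 1, 7 and 1 with dexamethasone, 3, 8 and 8 with LiCl, and 11, 9 and 14 in control. Its mean CPM was 0.240, 0.268, 0.340 and 0.679 in that order. When all symbols with a count were tested with no limit on low counts, 28 Hox genes entered the fit. Of these, 3 were then lower with dexamethasone than in control (Hoxd9, Hoxb5 and Hoxb9), where 4.11% of all genes tested so were lower. The next values concern the HoxB genes among them, named after their values were seen.

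Hoxb5, a gene of body axis patterning that is also known from endothelial precursors in mouse, had 0, 0 and 1 counts in the dexamethasone pools, against 13, 14 and 10 counts in control. The ratio of CPM was 0.0468 (exact 95% interval 0.00116 to 0.278, covering counting error only), and the adjusted p without the count limit was 0.00231 by edgeR and 0.014 by DESeq2. It had 3, 1 and 4 counts with dexamethasone + LiCl and 4, 9 and 7 with LiCl. Hoxb9 had no count in the dexamethasone pools, against 5, 3 and 8 counts in control. The exact 95% interval of the ratio of CPM reached up to 0.449, a 2.23-fold lower level. Against 3 counts over the dexamethasone pools, the limit that a count of 0 allows, the level was 3.08-fold lower, without the counting error of the control pools. Its adjusted p was 0.0428 by edgeR and 0.0702 by DESeq2. It had 2, 1 and 0 counts with dexamethasone + LiCl and 5, 6 and 3 with LiCl. The same groups differed in endothelial markers, whose sum was 91.8 to 102 CPM with dexamethasone + LiCl and 81.5 to 86.5 with dexamethasone, against 203 to 226 in control. With LiCl the endothelial sum was 189 to 208 CPM, while that of HoxB was 1.36 to 1.70 CPM. The part of endothelial cells in the HoxB values was not tested.

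**Figure D4:**
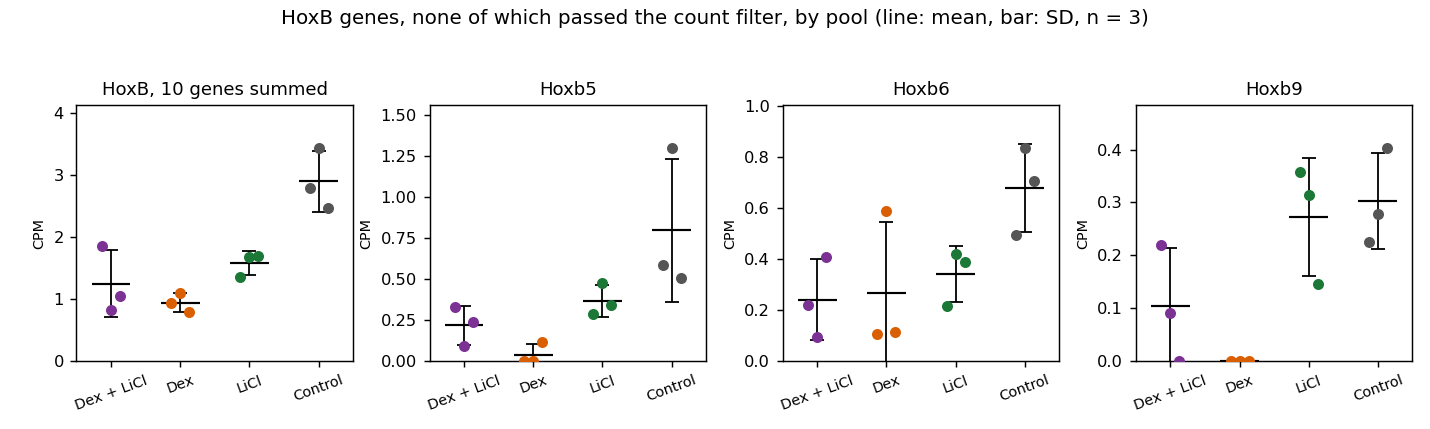
CPM of the 10 HoxB genes summed and of Hoxb5, Hoxb6 and Hoxb9 in each of the 12 pools (points, with mean and SD, n = 3; axes start at 0). The HoxB sum is at most 1.86 CPM in any treated pool and 2.47 to 3.44 in control, and Hoxb9 lies at 0 in the 3 dexamethasone pools.

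HoxC, whose 5′ genes are known from the hindlimb in mouse, was close to undetected in these counts. The annotation behind the counts is not settled, so few counts in a row need not mean little RNA of its gene. The 8 HoxC genes together had 14 counts with dexamethasone + LiCl, 0 with dexamethasone, 19 with LiCl and 12 in control. Libraries differed in size, and scaled to it these sums averaged 0.384, 0, 0.399 and 0.203 CPM in the same order. Hoxc10, a gene of hindlimb level in mouse, had 2 counts in all, both in 1 library. Hoxc6, the HoxC gene with the most counts, had 3, 2 and 2 counts with dexamethasone + LiCl, none with dexamethasone, 5, 5 and 2 with LiCl, and 2, 0 and 3 in control. Its mean CPM was 0.209, 0, 0.239 and 0.0804 in that order. Hoxd8, just outside the limit and the 3′ neighbour of Hoxd9, had 2.73, 2.10 and 2.57 CPM with dexamethasone + LiCl, 2.28, 1.59 and 1.68 with dexamethasone, 3.22, 3.04 and 2.57 with LiCl, and 2.93, 4.08 and 2.42 in control. All dexamethasone pools lay below the control pools, as in 12.7% of the genes that passed the count limit. Tested without the count limit, its log2 fold change with dexamethasone was −0.75 (SE 0.29, adjusted p = 0.114, edgeR), which did not pass.

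The lists of regulators of Hox genes were described by counts, not tested as sets. The Cdx genes, which act upstream of Hox genes along the trunk, had at most 5 counts. Of 22 Polycomb genes, 21 were tested and 1 was called, higher with dexamethasone and with dexamethasone + LiCl, with medians between −0.081 and 0.054. Over all genes, 5.45% rose with dexamethasone and 10.8% with dexamethasone + LiCl as compared to control, and 3.79% with dexamethasone + LiCl as compared to LiCl. The gene called was Ezh1, a histone H3K27 methyltransferase of non-dividing cells, at 76.9, 78.7 and 76.9 CPM with dexamethasone, against 47.4, 49.1 and 49.7 CPM in control (log2 fold change 0.67, SE 0.078, adjusted p = 2.83e-05). It was 63.8, 69.0 and 64.0 CPM with dexamethasone + LiCl. This too was higher than in control (log2 fold change 0.43, adjusted p = 0.000945) and higher than with LiCl (0.53, adjusted p = 0.000394), which had 40.7, 47.7 and 47.7 CPM. Of 10 MLL and H3K27 demethylase genes tested, 1 was higher with dexamethasone, Kdm6a, at 83.2, 102 and 86.7 CPM with dexamethasone, against 66.7, 66.9 and 73.4 CPM in control (log2 fold change 0.39, adjusted p = 0.0262). The Kdm6a call was lost in 3 of 12 fits that left out a library, those without control pool 1 or 2 or dexamethasone pool 2, with adjusted p up to 0.135. Medians of these 10 genes lay between −0.053 and 0.12.

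Tbx4, which acts beside Hox genes in hindlimb growth, was lower with dexamethasone + LiCl. It had 149, 146 and 152 CPM with dexamethasone + LiCl, against 201, 189 and 203 CPM with dexamethasone (log2 fold change −0.41, SE 0.072, adjusted p = 0.00241) and 192, 178 and 198 CPM in control (−0.34, SE 0.071, adjusted p = 0.00256). With LiCl alone it had 157, 165 and 157 CPM (−0.25 against control, adjusted p = 0.0376), a call that was lost in 8 of 12 fits with a library left out, with adjusted p up to 0.131. It held in those without control pool 2, dexamethasone pool 2 or 3 or dexamethasone + LiCl pool 2. Pitx1, the other limb type factor tested, was not called in any comparison. Of all genes, 4.78% fell with dexamethasone + LiCl as compared to dexamethasone, 11.8% as compared to control, and 5.9% with LiCl.

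Of 17 genes of the retinoic acid pathway, 11 were tested. The shares of all genes called, to be set beside the counts, were 5.45% higher and 5.49% lower with dexamethasone, 4.71% and 5.9% with LiCl, and for dexamethasone + LiCl 3.82% and 4.78% against dexamethasone, 10.8% and 11.8% against control, and 3.79% and 3.09% against LiCl. With dexamethasone 2 were higher (Aldh1a2 and Dhrs3) and 2 lower (Rara and Rdh10), with LiCl 1 was higher (Crabp1) and 1 lower (Aldh1a2). With dexamethasone + LiCl 1 was higher than with dexamethasone (Crabp1), and 4 were higher (Aldh1a2, Crabp1, Cyp26b1 and Dhrs3) and 2 lower (Rarg and Rdh10) than in control. As compared to LiCl, 2 were higher (Aldh1a2 and Dhrs3) and 1 lower (Rdh10). Medians of this list lay between −0.098 and 0.18, those of all genes between −0.0042 and 0.0085. Crabp1, which binds retinoic acid in the cytoplasm, had 67.9, 65.6 and 72.6 CPM with dexamethasone + LiCl, against 33.9, 48.6 and 29.5 CPM in control (log2 fold change 0.90, adjusted p = 0.000273). With LiCl it had 62.1, 69.3 and 66.3 CPM (0.84 against control, adjusted p = 0.00143). Rarg, a retinoic acid receptor of cartilage, had 183, 182 and 212 CPM with dexamethasone + LiCl, against 267, 318 and 282 CPM in control (−0.58, adjusted p = 0.000712). The Crabp1 call for dexamethasone + LiCl against dexamethasone (0.54, adjusted p = 0.0299) was lost without dexamethasone pool 2 or 3 or any of the combined pools, with adjusted p up to 0.105.

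The 5 genes listed as limb targets of HOXA13 and HOXD13 in mouse (Bmp2, Bmp7, Epha7, Aldh1a2 and Enpp2) all passed the count limit, while Hoxd13 itself was called in no comparison. Medians of the 5 lay between −0.62 and 0.16 on the log2 scale. Over all genes, 5.49% were lower and 5.45% higher with dexamethasone, 5.9% and 4.71% with LiCl, and for dexamethasone + LiCl 4.78% and 3.82% against dexamethasone, 11.8% and 10.8% against control, and 3.09% and 3.79% against LiCl. With dexamethasone 2 were lower (Bmp2 and Epha7) and 1 higher (Aldh1a2), and with LiCl 3 were lower (Enpp2, Epha7 and Aldh1a2) and 1 higher (Bmp7). With dexamethasone + LiCl 2 were lower than with dexamethasone (Enpp2 and Epha7) and 1 higher (Bmp7), and 3 were lower (Enpp2, Epha7 and Bmp2) and 2 higher (Bmp7 and Aldh1a2) than in control. As compared to LiCl, 2 were lower (Bmp2 and Epha7) and 1 higher (Aldh1a2). Epha7, an ephrin receptor of condensing digit cartilage in mouse, had 31.9, 33.8 and 29.4 CPM with dexamethasone + LiCl, against 68.6, 54.2 and 64.5 CPM in control (log2 fold change −0.99, SE 0.10, adjusted p = 6.07e-06). Its fall with dexamethasone alone (−0.39, adjusted p = 0.0216) was lost without control pool 1 or 3 or dexamethasone pool 1, with adjusted p up to 0.109, and that against LiCl (−0.43, adjusted p = 0.0182) without LiCl pool 1 or 2 or combined pool 1 or 3, with adjusted p up to 0.101. Enpp2, which encodes autotaxin, had 111, 91.1 and 97.8 CPM with dexamethasone + LiCl, against 206, 188 and 186 CPM with dexamethasone (−0.96, SE 0.090, adjusted p = 1.34e-05). With LiCl it had 130, 111 and 110 CPM, against 197, 188 and 189 CPM in control (−0.71, SE 0.088, adjusted p = 0.000134). Bmp2, a bone morphogenetic protein, had 22.04, 19.1 and 21.2 CPM with dexamethasone, against 30.2, 34.2 and 32.9 CPM in control (−0.64, SE 0.091, adjusted p = 0.000166). For Enpp2 and Epha7 both LiCl groups thus lay lower than their partners without LiCl, and for Bmp2 both dexamethasone groups lay lower than control. Calls for Aldh1a2, an enzyme that makes retinoic acid, depended in part on single pools. That with LiCl (−0.92, adjusted p = 0.0338) was lost without control pool 1 or 2 or LiCl pool 1 or 3, with adjusted p up to 0.122. That with dexamethasone + LiCl against control (0.83, adjusted p = 0.0204) was lost without control pool 3 or dexamethasone + LiCl pool 2, with adjusted p up to 0.135.

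Genes that flank the clusters were examined last. Of 19 symbols listed, 17 were among those counted and 12 were tested, with medians between −0.083 and 0.075 on the log2 scale. With dexamethasone 1 was higher and 1 lower (5.45% and 5.49% of all genes), and with LiCl 1 and 2 (4.71% and 5.9%). With dexamethasone + LiCl 2 were lower than with dexamethasone (4.78% of all genes) and none higher (3.82%). As compared to control 1 was higher and 3 lower (10.8% and 11.8%), and as compared to LiCl none (3.79% and 3.09%). Evx2, a homeobox gene beside Hoxd13 that is expressed with it in the autopod in mouse, had 5.57, 6.39 and 5.08 CPM with dexamethasone + LiCl, against 11.3, 9.40 and 9.97 CPM with dexamethasone. All combined pools lay below the dexamethasone pools, as in 14.4% of all genes, and the log2 fold change was −0.85 (SE 0.18, 95% CI −1.23 to −0.48, adjusted p = 0.00741). As compared to the control pools, at 10.4, 8.54 and 10.3 CPM, it was −0.80 (SE 0.17, 95% CI −1.16 to −0.43, adjusted p = 0.00325). Both calls held in each of 19 alternative fits. With LiCl alone Evx2 had 7.22, 8.71 and 5.96 CPM (−0.43 against control, 95% CI −0.77 to −0.088, adjusted p = 0.103). Hoxd13 in the same comparisons was at −0.022 (95% CI −0.19 to 0.14) for dexamethasone + LiCl against dexamethasone, −0.14 (95% CI −0.30 to 0.026) against control, and −0.029 for LiCl against control. Whether the gap between the neighbours differs from 0 was not tested. The muscle marker sum also moved, at 118 to 149 CPM with dexamethasone + LiCl, against 17.7 to 36.5 CPM with dexamethasone, and its part in the Evx2 values was not tested.

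Beyond the 3′ end of HoxA, Snx10, a sorting nexin needed by osteoclasts, had 2.84, 4.65 and 3.85 CPM with dexamethasone + LiCl, against 9.23, 6.87 and 8.56 CPM in control (log2 fold change −1.12, adjusted p = 0.000769). The osteoclast marker sum over the 4 listed genes counted here, 3 of them detected and Dcstamp at 0, was 75.1 to 89.1 CPM with dexamethasone + LiCl, against 159 to 178 CPM in control, and its part was not tested. Tax1bp1, beyond the 5′ end of HoxA, had 95.7, 90.8 and 87.2 CPM with dexamethasone + LiCl, against 119, 122 and 123 CPM with dexamethasone (−0.41, adjusted p = 0.00267). The other calls of this list were Hibadh, higher with dexamethasone, Smug1, higher with LiCl and with dexamethasone + LiCl than in control, Snx10, lower with dexamethasone and with LiCl, and Tax1bp1, lower with LiCl and with dexamethasone + LiCl than in control. The call of Snx10 with dexamethasone was lost without control pool 1 or dexamethasone pool 1 (adjusted p up to 0.0725), and that with LiCl without control pool 1 or 3 or any LiCl pool (up to 0.0961). That of Tax1bp1 was lost without LiCl pool 3 for LiCl (adjusted p = 0.0711) and without combined pool 3 for dexamethasone + LiCl against control (adjusted p = 0.066). Single libraries were left out for list genes whose fold changes are given, in the comparisons where they were called, and not otherwise. No gene of the list was called between dexamethasone + LiCl and LiCl by edgeR.

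**Figure D5:**
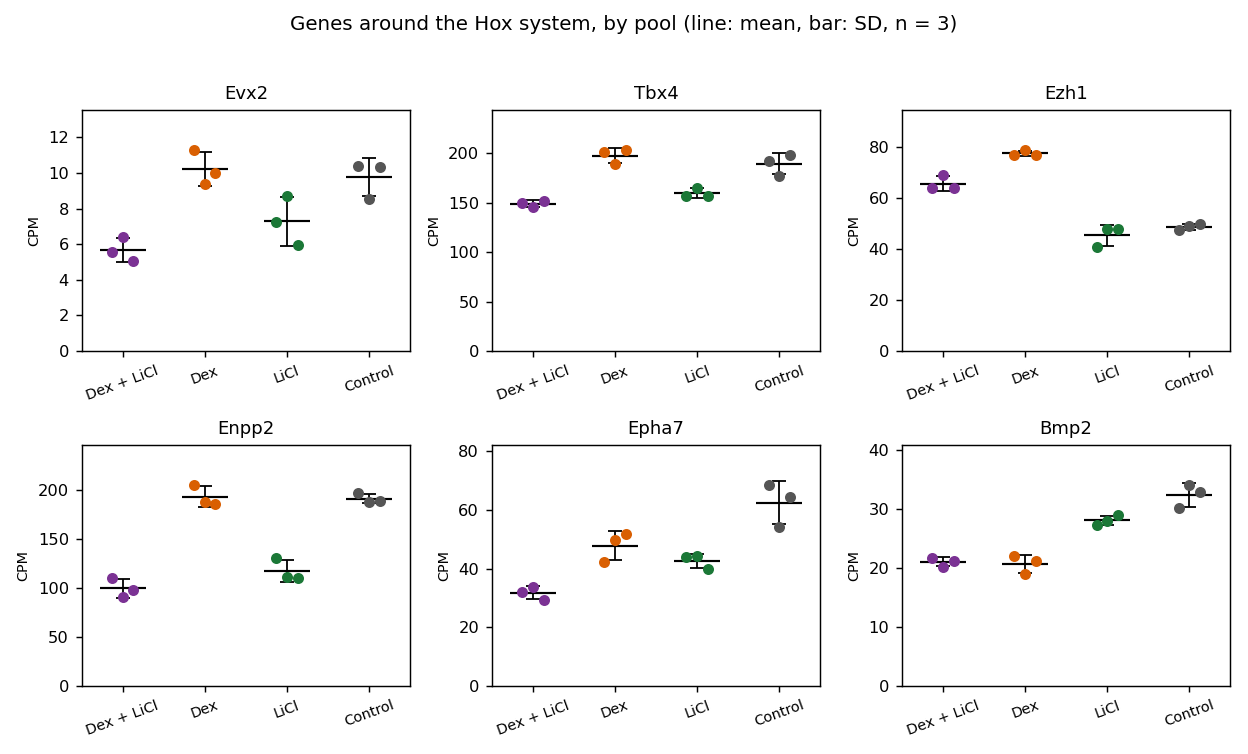
CPM of Evx2, Tbx4, Ezh1, Enpp2, Epha7 and Bmp2 in each of the 12 pools (points, with mean and SD, n = 3; axes start at 0). Evx2 is 5.08 to 6.39 CPM in the dexamethasone + LiCl pools and 9.40 to 11.3 in the dexamethasone pools, and Ezh1 is 76.9 to 78.7 with dexamethasone and 47.4 to 49.7 in control.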

How the data were processed

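The deposited values were raw counts per gene symbol. Alignment was done by the authors with Subread, duplicates were removed with Picard, reads were counted with HTSeq-count and technical replicates were merged; their libraries were strand-specific. A human build is named in the submitters' processing notes, although the libraries are from rat, so the annotation behind the counts is not settled and coordinates are given only for the RefSeq promoters (GRCr8). Total counts per library were 9055581 to 21953446. Reads carried no molecular tags, so intervals and floors cover counting error only.

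Genes with 60 or more counts in at least 2 libraries (12602) were scaled with TMM and fitted with edgeR 4.0.16 in R 4.3.3 (quasi-likelihood F-test, two-sided, condition as the only term, 12 libraries in one fit). The threshold was a p under 0.05 after Benjamini-Hochberg adjustment over all genes tested, with no fold minimum. Values per pool are CPM. Pool values are given for called Hox genes, the most counted Hox gene of each cluster and genes near the count limit, and for up to 3 called members of each list. The Hox genes and the lists were chosen with earlier results of these data known. One list of the genes considered is not reported here. The edgeR test was also run on counts simulated for dexamethasone against control. These were drawn independently for each library with the spread of the fit. They hold no effect of rats shared between conditions and cannot show how the tests behave under it.

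The alternatives were RLE scaling, DESeq2 1.42.0, other count limits, the replicate number as a term, only the groups compared, a 2-fold minimum, thinned counts, each library left out, and, chosen after seeing the data, rows with the gene ID of a Hox gene. The paper states that a pool holds bones from one rat and one condition and that 3 rats served in all, so the conditions share rats; the labels do not tie the replicate numbers to them. Deviations from the condition means correlated between libraries of one number at 0.13 to 0.50 in 4 pairs of conditions, each over 0.1, and at 0.027 to 0.17 between dexamethasone and control.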

Additional observations from a re-analysis of the deposited data

How the results depend on the processing

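The count of Hox genes that fell with dexamethasone, 2 as given above, was 1 with DESeq2 and in a fit of only the groups compared, and 0 with a 2-fold minimum. Over the fits that left out a library it was 1 to 2. With no count filter it was 3 (Hoxb5, Hoxb9 and Hoxd9), and Hoxd12 was not among them. The count that fell with dexamethasone + LiCl as compared to control, 1 as given above, was 0 with no count filter, in a fit of only the groups compared and with a 2-fold minimum, and 0 to 1 over the fits that left out a library. With the replicate number as a block no count changed, and the adjusted p (edgeR) was 0.00748 for Hoxd9 and 0.0326 for Hoxd12 with dexamethasone and 0.0293 for Hoxd12 with dexamethasone + LiCl against control. Cluster shares from only the 5 genes that passed were 6.149% (dexamethasone + LiCl), 6.968% (dexamethasone), 5.594% (LiCl) and 5.273% (control) for HoxA, 93.85% (dexamethasone + LiCl), 93.03% (dexamethasone), 94.41% (LiCl) and 94.73% (control) for HoxD, and 0 for HoxB and HoxC.

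Of 1324 single-gene values, 1219 kept direction and call, 69 lost a call, 1 gained one and 35 changed sign, the last among uncalled values near 0. Hoxd10 with LiCl was −0.0012 with RLE scaling, −0.0025 with DESeq2, −0.0036 with filterByExpr, −0.0045 with no count filter, −0.013 with the replicate block and −0.046 with thinned counts. Hoxd9 was 0.034 for dexamethasone + LiCl against LiCl with thinned counts. With a library left out the log2 fold change with LiCl was −0.028 to 0.099 for Hoxa3, −0.11 to 0.058 for Hoxd10, −0.084 to 0.038 for Hoxd13 and −0.052 to 0.064 for Hoxd11. For dexamethasone + LiCl against dexamethasone it was −0.038 to 0.21 for Hoxd10, −0.052 to 0.17 for Hoxd12, −0.059 to 0.0019 for Hoxd13 and −0.060 to 0.026 for Hoxd11. For dexamethasone + LiCl against LiCl it was −0.14 to 0.048 for Hoxd10. The interaction was −0.039 to 0.21 for Hoxd10, −0.060 to 0.061 for Hoxd13 and −0.083 to 0.037 for Hoxd11. The median over all genes shifted by no more than 0.0022 under RLE. Counts under 15 a library limit what can be said of HoxB and HoxC.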
